A study of Mus musculus with 6 samples.

Results

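The genes of the short-range and secreted guidance systems are described here, that is the ephrins and Eph receptors, the semaphorins and plexins, the slits and Robo receptors, and the netrins and Unc5 receptors. They were chosen by symbol alone, as every listed gene named Efna, Efnb, Epha, Ephb, Sema3 to Sema7, Plxn, Slit, Robo, Ntn or Unc5 followed by its family number or letter. The rule found 66 of the 17830 genes in the count table, 35 of them ligands and 31 receptors. Ephrins are membrane-bound ligands of the Eph receptor tyrosine kinases, and the contact signals both ways, into the cell with the receptor and into the cell with the ephrin. Semaphorins act through plexins, and the secreted class 3 members mostly need a neuropilin as co-receptor. Slits bind Robo receptors, and netrins bind Dcc, neogenin or the Unc5 receptors. First known from growing axons, these systems also act between bone cells: ephrin-B2 on osteoclasts meets EphB4 on osteoblasts, Sema4d from osteoclasts restrains osteoblasts through plexin-B1, Sema3a acts on both lineages, and Slit3 and Sema3e are known for their action on vessels and on bone turnover.

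Bulk RNA sequencing covered 6 libraries of cells labelled as osteoblasts of the skull bone, grown from calvarial bone chips of mice aged 6 months and sorted for the red reporter tdTomato. The 3 control libraries came from mOCN-Cre;Ai9 mice and the 3 APPswe libraries from TgAPPswemOCN-Cre;Ai9 mice, on a C57BL/6J background and described by the study as male. All mice carried mOCN-Cre, a Cre cassette placed behind the osteocalcin gene Bglap, and Ai9, which makes tdTomato once Cre has acted. The APPswe mice also carried a Cre-dependent transgene for human APP with the Swedish mutation, driven by the CAG promoter, so any cell that has made Cre can express it. The labels do not say whether libraries of a group came from separate animals or cultures, so the p-values measure only the spread between these samples, which may be technical.

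Total counts lay between 17263757 and 18398392 per library, and 3 counts, taken as the floor of detection for counting error only, corresponded to 0.167 to 0.173 CPM (library-size scaled counts after TMM). Control replicate 2 stood apart from its group: its biological coefficient of variation was 0.344 against control replicate 1 and 0.349 against control replicate 3, while the other pairs within a genotype lay between 0.0202 and 0.0789. It also held 1 count of Bglap and 2 counts over 4 Y-linked genes, against 115 to 204 and 2257 to 3406 counts in the other libraries, so its Y-linked counts go against the description of all animals as male. Osteoblast markers, most of their sum from Col1a1 and Col1a2, were present at 7953 to 11474 CPM per library. Control replicate 2 had the highest sum, but its Ibsp, Alpl and Dmp1 were at 0.169, 1.97 and 0.112 CPM. The other controls held 77.4 to 84.8, 43.4 to 43.7 and 14.3 to 15.1 CPM of them, while Runx2 was highest of the controls in replicate 2. Of the 12 markers, Sp7 was called higher in APPswe libraries (1.98) and none lower. Dmp1 (-3.64) was called lower without control replicate 2 (-4.21). Macrophage markers were present too, at 15849 to 21397 CPM in control and 10926 to 11692 CPM in APPswe libraries, and 1 gene, Lyz2, gave most of that sum in every library. Summed endothelial markers were at 268, 83.6 and 290 CPM in control replicates 1, 2 and 3 and at 28.7 to 31.9 CPM in APPswe libraries. In control replicate 2 most of that sum came from Vwf (55.0 CPM) and Kdr (25.5 CPM). Every other endothelial marker on the list was no higher there than in any APPswe library. Osteoclast markers, at 158 to 290 CPM in control and 719 to 731 CPM in APPswe libraries, skeletal muscle markers, at 1.85 to 8.43 and 126 to 132 CPM, and stromal fibroblast markers, at 1884 to 3707 and 6879 to 7070 CPM, were higher in every APPswe library than in any control library. In bulk samples fewer cells of a type and less RNA per cell cannot be told apart. Results are given with and without control replicate 2, and within each style of library name. Control replicates 1 and 2 and APPswe replicate 1 are written with a hyphen and the other 3 libraries without one. The library name of control replicate 2 carries the letter S, where all others carry an L. The meaning of these letters is not known.

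**Figure D1:**
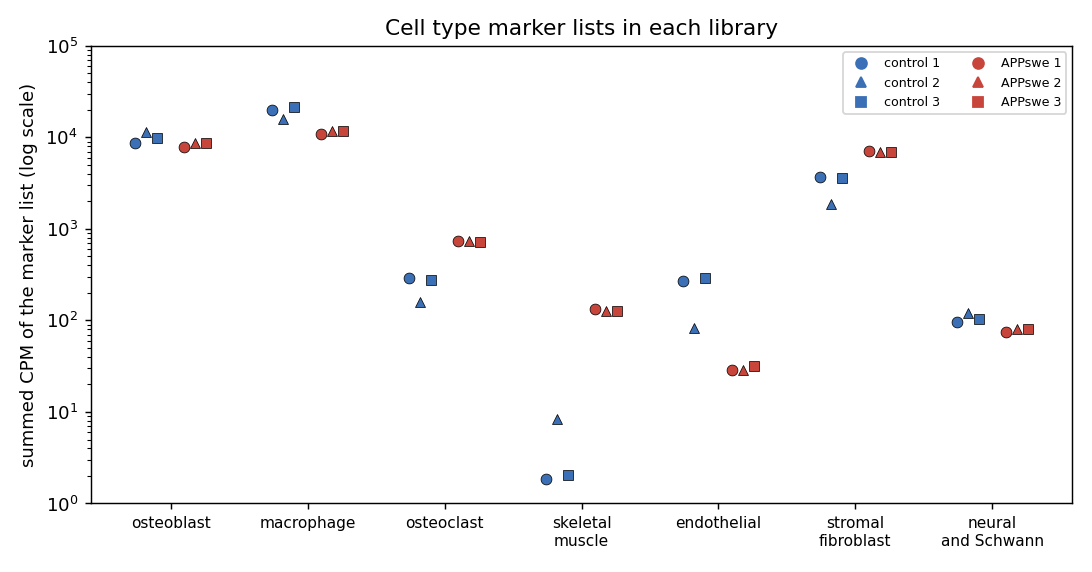
Summed CPM of each cell type marker list (log scale) in each of the 6 libraries, with blue points for control, red points for APPswe and the shape giving the replicate. Skeletal muscle, osteoclast and stromal fibroblast sums were higher in all 3 APPswe libraries. The endothelial sum of control replicate 2 (83.6 CPM) fell between the other control libraries and the APPswe libraries, and most of it came from Vwf and Kdr alone.

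Of the 66 genes, 56 had enough counts to be tested, and the guidance systems moved in both directions. A call needed an adjusted p (edgeR, over all 13484 genes tested) no higher than 0.05 together with a log2 fold change of 1 or more in size. In APPswe libraries 5 members were called higher (Ephb2, Unc5b, Slit1, Slit3 and Sema4a), which is 8.93% of those tested beside 3.74% of all genes. Another 4 were called lower (Ntn1, Sema3e, Sema5a and Plxnc1), or 7.14% beside 3.60%. By the adjusted p alone 8 members rose and 12 fell, which is 14.3% and 21.4%, where 10.5% of all genes rose and 12.0% fell. The other 36 did not pass. The 3 control and 3 APPswe values did not overlap for 15 members higher and 15 lower in APPswe libraries, or 26.8% each, against 22.8% and 22.2% of all genes. The median log2 fold change of the members was -0.039, and that of all genes tested was -0.0033. Among the 33 ligands tested 3 were called in each direction, and among the 23 receptors 2 were called higher and 1 lower. Without control replicate 2 more members were called lower. Then 59 members were tested, 5 were called higher (8.47%, with 4.87% of all genes) and 14 lower (23.7%, with 6.58% of all genes), and 8 of the 9 calls made with all libraries were among them. Of the 14, Epha5 and Robo4 entered the test in that fit through the controls in which they were high, so their lower calls follow from the filter. The count of higher calls was 3 without control replicate 1, APPswe replicate 2 or APPswe replicate 3, and that of lower calls was 2 without APPswe replicate 1 and 1 without APPswe replicate 2 or 3. Of the 11 members that passed the adjusted p but not the fold limit, Efnb1, Sema3c and Sema4d passed in all 6 fits with 1 library left out. The other 8 (Efna5, Epha2, Epha4, Plxna1, Plxna2, Plxnb2, Robo1 and Sema4b) missed the limit without control replicate 3 in edgeR's test, and all but Epha2, Plxna1 and Plxnb2 without control replicate 1. They also missed it without any 1 of the APPswe libraries, at adjusted p-values of up to 0.17.

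**Figure D2:**
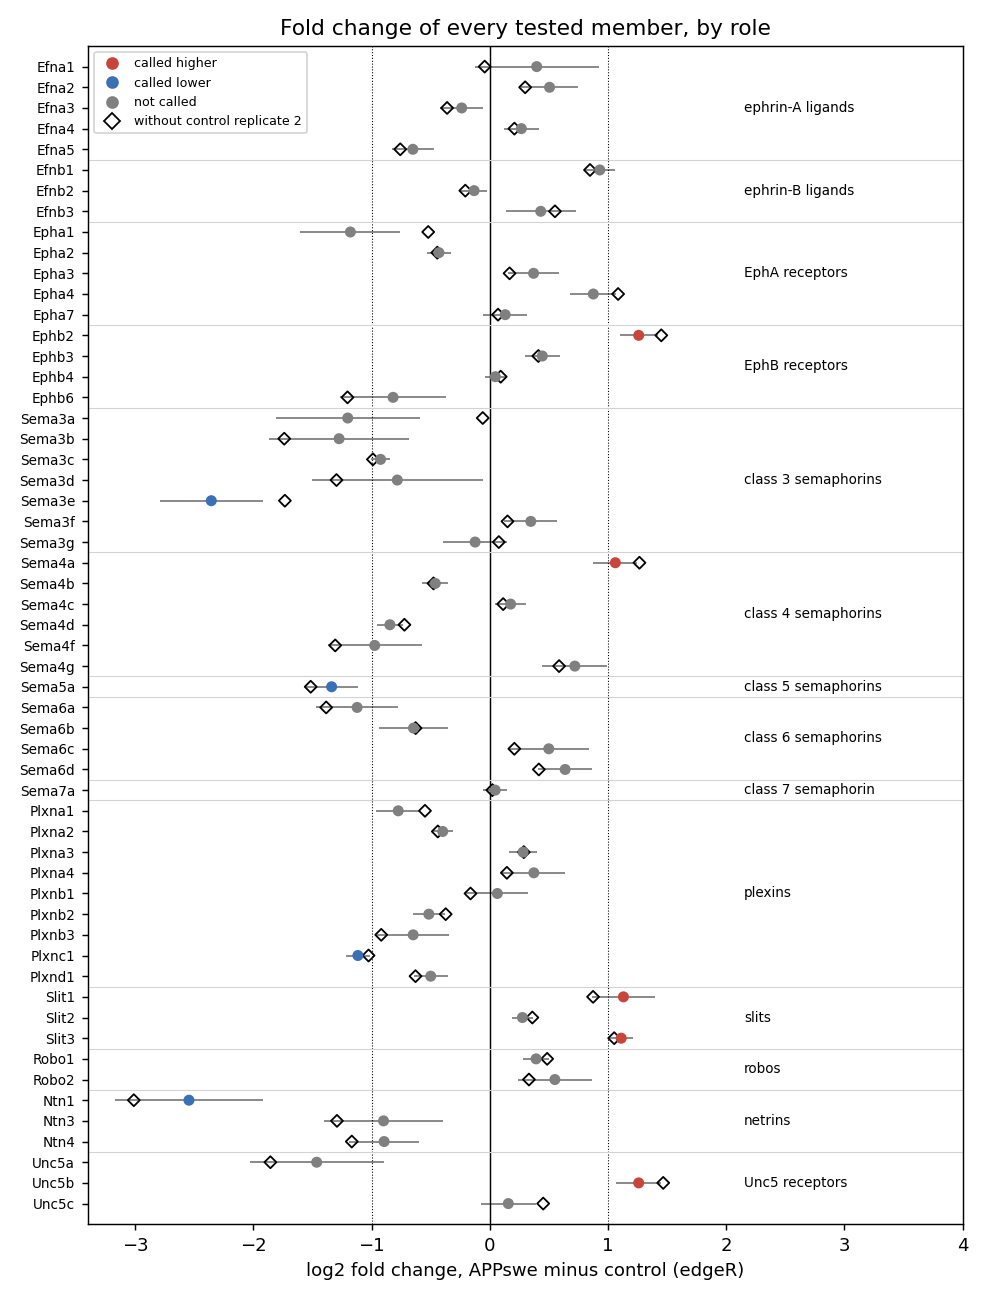
Log2 fold change, APPswe minus control, of each of the 56 tested members, ordered by role, with bars for 1 standard error and open diamonds for the fit without control replicate 2, and dotted lines at the fold limit for a call. Red points are the 5 members called higher, blue points the 4 called lower and grey points those not called, and the bars are widest for Sema3d, Ntn1 and Sema3a, where control replicate 2 differed from the other controls.

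In RefSeq coordinates of GRCm38.p6, Ephb2 spans chr4:136647536-136836326, Unc5b chr10:60762594-60831581, Slit1 chr19:41597824-41747275, Slit3 chr11:35121456-35708507 and Sema4a chr3:88435959-88461182. The lower members Ntn1, Sema3e, Sema5a and Plxnc1 span chr11:68209364-68386826, chr5:14025276-14256689, chr15:32244813-32696341 and chr10:94790866-94945015. The proximal promoter is shown for 1 called member of each direction, Unc5b and Sema3e, to let the 2 be read side by side. Both have 1 start in the promoter table, and the 200 bases before it lie outside the RefSeq gene and overlap no exon or gene of GENCODE release M21. The windows of Ephb2, Plxnc1, Slit3 and Sema5a overlap a gene or exon, Sema4a has 4 starts, and Ntn1 and Slit1 have no entry. Sequences are from RefSeq (GRCm38.p6), 5′ to 3′ on the strand of the gene, at chr10:60831582-60831781 on the minus strand and chr5:14025076-14025275 on the plus strand. Capitals mark matches on either strand to the GC box GGGCGG, so a match on the other strand shows as its reverse complement.
Unc5b: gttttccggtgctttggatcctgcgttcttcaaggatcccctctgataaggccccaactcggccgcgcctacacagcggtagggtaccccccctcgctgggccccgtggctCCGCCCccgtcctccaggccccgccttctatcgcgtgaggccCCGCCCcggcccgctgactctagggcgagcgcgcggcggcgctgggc
Sema3e: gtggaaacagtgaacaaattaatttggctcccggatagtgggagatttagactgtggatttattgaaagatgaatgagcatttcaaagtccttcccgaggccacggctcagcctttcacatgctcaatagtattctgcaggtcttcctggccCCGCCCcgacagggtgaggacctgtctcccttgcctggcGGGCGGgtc

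The GC box was found 2 times in each of these windows, and 31.0% of all 32851 promoter windows of this length hold it. Also searched on both strands, with no match in either window, were the CCAAT box CCAAT (29.3% of all windows), the TATA box TATAAA (9.96%), the AP-1 site TGANTCA (5.48%) and the RUNX core TGTGGT (11.2%). GC content was 71.5% before Unc5b and 52.5% before Sema3e, where the median window had 53.0%. A match is a description of these letters only.

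Levels between genes were compared in the authors' FPKM, which is per length. The plexins led, with Plxnb2 at 94.6 ± 16.1 FPKM in control and 69.8 ± 3.48 FPKM in APPswe libraries (SD, n = 3 each), followed by the transmembrane semaphorin Sema4d at 48.0 ± 6.80 FPKM and 28.1 ± 0.521 FPKM. Plxna1, Plxnd1 and Sema3c came next, with means over the 6 libraries of 34.6, 21.1 and 19.6 FPKM. Unc5b (14.0 FPKM), Efnb1 (13.6 FPKM), Plxnc1 (11.9 FPKM), Slit3 (11.8 FPKM) and Epha2 (10.2 FPKM) completed the 10 most abundant members. The ranges of Plxna1 and Sema4d over the libraries, 23.7 to 55.4 and 27.6 to 55.8 FPKM, overlapped, but Sema4d was above Plxna1 within every library. The gap was narrow in control replicate 2 (55.8 against 55.4 FPKM) and APPswe replicate 2 (28.6 against 28.3 FPKM). The order within the group from Unc5b to Epha2 is not fixed by these data. Within a genotype the order differed: Unc5b was at 7.95 ± 1.96 FPKM in control and 20.0 ± 2.44 FPKM in APPswe libraries, and Plxnc1 went the other way, from 16.0 ± 1.85 FPKM to 7.78 ± 0.491 FPKM.

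**Figure D3:**
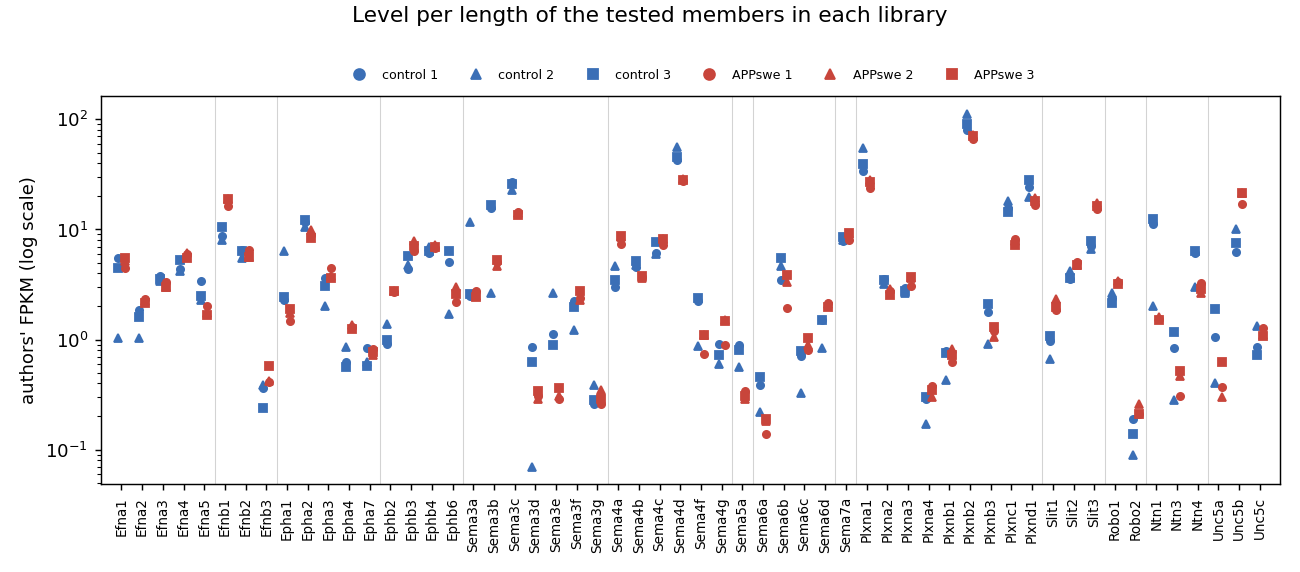
Authors' FPKM (log scale) of the 56 tested members in each library, with control in blue and APPswe in red, ordered by role from ephrins to Unc5 receptors. Plxnb2 lies highest, between 65.8 and 112 FPKM, and control replicate 2 (blue triangle) lies away from the other controls for members such as Sema3a, Sema3d and Ntn1.

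Among the B-type ephrin system, the receptor Ephb2 was called higher and the ligand Efnb1 rose below the fold limit, while the osteoblast receptor Ephb4 and its osteoclast ligand Efnb2 did not pass the test. Ephb2, an EphB receptor expressed in osteoblasts, was counted at 9.93, 14.8 and 11.0 CPM in control replicates 1, 2 and 3 and at 27.9, 28.9 and 28.9 CPM in APPswe replicates 1, 2 and 3. The highest control library, replicate 2, lay well under the lowest APPswe library. The log2 fold change was 1.26 (SE 0.16, adjusted p = 0.0034 by edgeR), 1.45 without control replicate 2, and 1.17 and 1.39 within the hyphenated and unhyphenated names. The call of Ephb2 held in all 6 fits with 1 library left out. Efnb1, an X-linked ligand needed for normal skull suture and bone formation, was at 27.4, 25.2 and 33.6 CPM in control and 48.8, 57.7 and 57.9 CPM in APPswe libraries, again without overlap. It rose by 0.93 on the log2 scale (SE 0.13, adjusted p = 0.00498 by edgeR), or by 0.85 without control replicate 2, and it reached the fold limit without control replicate 3 (1.05) or APPswe replicate 1 (1.01).

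Ephb4 differed little between the genotypes, at 27.0 ± 1.47 CPM in control and 27.9 ± 1.14 CPM in APPswe libraries (SD, n = 3 each), with a log2 fold change of 0.05 and a 95% interval of -0.16 to 0.25 (edgeR-adjusted p = 0.734). Efnb2 lay at 28.6 ± 2.73 CPM and 26.1 ± 2.05 CPM, a log2 fold change of -0.13 with an interval of -0.39 to 0.13 (edgeR-adjusted p = 0.423). Both intervals leave out a change of 1 on the log2 scale in either direction. Ephb3, another EphB receptor, was higher in every APPswe library (17.3, 18.8 and 23.3 against 23.9, 30.0 and 26.9 CPM), and its log2 fold change of 0.44 missed the limit (edgeR-adjusted p = 0.0714). It passed without control replicate 2, at 0.41 (edgeR-adjusted p = 0.0269).

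No member of the A-type ephrin system was called with all libraries. Epha4, a receptor that binds ephrins of both types, rose from 3.81, 5.34 and 3.50 CPM in control to 7.68, 8.08 and 7.47 CPM in APPswe libraries, for a log2 difference of 0.88 (SE 0.20, adjusted p = 0.0226 by edgeR). The groups did not overlap, and control replicate 2 lay nearest to the APPswe libraries. Without it the log2 fold change was 1.09, past the fold limit. Epha2, a receptor known as a brake on osteoblast differentiation, fell by 0.43 on the log2 scale (SE 0.10, adjusted p = 0.0238 by edgeR), from 39.8 ± 2.61 CPM to 29.6 ± 2.54 CPM (SD, n = 3 each). The ligand Efna5 fell by 0.65 (SE 0.18, adjusted p = 0.0406 by edgeR), from 16.6, 11.3 and 12.5 CPM to 9.36, 8.41 and 7.92 CPM. Efna2, the osteoclast partner of Epha2, had a log2 difference of 0.51 (edgeR-adjusted p = 0.183), Efna4 one of 0.27 (edgeR-adjusted p = 0.241) and the receptor Epha3 one of 0.37 (edgeR-adjusted p = 0.263). None of these 3 passed. Altogether 1 of the 5 ephrin-A ligands and 1 of the 5 EphA receptors tested fell, and 1 EphA receptor rose, where 12.0% of all genes fell and 10.5% rose.

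Of the 7 secreted class 3 semaphorins 2 fell (28.6%, beside 12.0% of all genes) and none rose (beside 10.5%), and their median log2 fold change was -0.92. Sema3e, a ligand of plexin-D1, was counted at 7.56, 17.9 and 6.15 CPM in control replicates 1, 2 and 3 and at 1.85, 2.01 and 2.30 CPM in APPswe replicates 1, 2 and 3. Every APPswe library was below every control library, and control replicate 2 was the highest of all. Sema3e fell by 2.36 on the log2 scale (SE 0.44, adjusted p = 0.012 by edgeR), and by 1.73 without control replicate 2, with log2 ratios of -2.78 and -1.51 within the 2 styles of name. Its call was lost without APPswe replicate 1, 2 or 3, at log2 fold changes of -2.28, -2.34 and -2.45 (edgeR-adjusted p = 0.0644, 0.0644 and 0.0574). Sema3c, which guides neural crest and vascular cells, was the most abundant of the class. It was at 128, 110 and 127 CPM in control and 65.1, 64.5 and 62.8 CPM in APPswe libraries and fell by 0.92 (SE 0.08, adjusted p = 0.00113 by edgeR), just under the fold limit.

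Sema3a, known to protect bone, gave no change that could be told from the spread. It was at 13.7, 64.5 and 14.3 CPM in control and 14.3, 13.1 and 12.9 CPM in APPswe libraries, so 1 control library, replicate 2, held several times the level of all others. The log2 fold change was -1.20 (edgeR-adjusted p = 0.199) with it and -0.06 (edgeR-adjusted p = 0.655) without it. Sema3b behaved in the opposite way. It was at 40.3, 7.48 and 47.1 CPM in control and 12.9, 12.2 and 14.1 CPM in APPswe libraries, control replicate 2 being the lowest library of all 6. The log2 fold change was -1.27 (edgeR-adjusted p = 0.166) with all libraries and -1.74 (edgeR-adjusted p = 2.56e-07) without control replicate 2. Sema3d had the same order, 5.49, 0.450 and 4.01 against 1.91, 1.78 and 2.08 CPM, and was called lower in the fit without that library, at -1.30 (edgeR-adjusted p = 0.000345).

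Class 4 semaphorins moved in both directions. Sema4a, a membrane semaphorin best known from immune cells, was counted at 8.78, 13.9 and 10.4 CPM in control and 20.5, 23.8 and 24.8 CPM in APPswe replicates 1, 2 and 3, with no overlap. It rose by 1.06 on the log2 scale (SE 0.19, adjusted p = 0.01 by edgeR), by 1.27 without control replicate 2, and its log2 ratios were 0.85 and 1.23 within the hyphenated and unhyphenated names. The call was lost without control replicate 1 (0.92, edgeR-adjusted p = 0.0277), APPswe replicate 2 (1.04, edgeR-adjusted p = 0.0541) or APPswe replicate 3 (1.01, edgeR-adjusted p = 0.0555). Sema4d, the osteoclast signal that restrains bone formation, went the other way. Its values were 187, 243 and 199 CPM in control and 113, 119 and 118 CPM in APPswe libraries, and it fell by 0.84 (SE 0.11, adjusted p = 0.00368 by edgeR), or by 0.72 without control replicate 2, its highest library. Sema4b fell by 0.46 (SE 0.11, adjusted p = 0.0274 by edgeR). The macrophage marker sum, most of it from Lyz2, was lower in APPswe libraries, as Sema4d was. Of its 13 markers 1 (Cd14) was called lower and 1 (Aif1) higher. Within the controls that sum was lowest in replicate 2 (15849 CPM), where Sema4d was highest. The osteoclast marker sum was higher in APPswe libraries, with 4 of 8 markers (Acp5, Mmp9, Ocstamp and Oscar) called higher. The part of these markers in the values of Sema4a and Sema4d was not tested.

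In classes 5 to 7, Sema5a was the only member called with all libraries. Sema5a, a transmembrane semaphorin with thrombospondin repeats, was counted at 9.24, 5.79 and 8.64 CPM in control and at 3.42, 2.90 and 3.03 CPM in APPswe libraries. The lowest control, replicate 2, was still above the highest APPswe library. It fell by 1.34 on the log2 scale (SE 0.22, adjusted p = 0.00804 by edgeR), by 1.51 without control replicate 2, and its log2 ratios were -1.14 and -1.54 within the 2 styles of name. The call was lost without APPswe replicate 2 or 3, where the adjusted p by edgeR was 0.0518 and 0.0509. Sema6d, known for its action in osteoclast differentiation through plexin-A1, had a log2 difference of 0.64 (edgeR-adjusted p = 0.091) and passed without control replicate 2 (0.42, edgeR-adjusted p = 0.00897). Sema6b, the most abundant of class 6, had one of -0.64 (edgeR-adjusted p = 0.157) and overlapped between the groups. Sema7a, a membrane-anchored semaphorin that binds plexin-C1, differed little, at 25.3 ± 1.55 CPM and 26.1 ± 2.29 CPM (SD, n = 3 each). Its log2 fold change was 0.05 with an interval of -0.20 to 0.29 (edgeR-adjusted p = 0.784), and it took the other sign, at -0.018, with the style of name as covariate.

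Of the 9 plexins 4 fell (44.4%, beside 12.0% of all genes) and none rose (beside 10.5%). Every APPswe library was below every control library for 5 plexins and above every control library for 1, Plxna3, where 22.2% and 22.8% of all genes were so. Plxnc1, the receptor of Sema7a, was called. It was counted at 113, 129 and 105 CPM in control and 56.2, 53.8 and 50.3 CPM in APPswe replicates 1, 2 and 3, and fell by 1.12 on the log2 scale (SE 0.10, adjusted p = 0.0011 by edgeR). All 3 APPswe libraries were near the same level, and the fall was 1.02 without control replicate 2 and gave log2 ratios of -1.11 and -1.01 within the 2 styles of name. Its call held in each fit with 1 library left out. Plxna1, a receptor for class 3 and class 6 semaphorins that also acts in osteoclasts and macrophages, fell by 0.77 (SE 0.19, adjusted p = 0.0287 by edgeR), from 303, 495 and 356 CPM to 201, 243 and 232 CPM. The abundant Plxnb2, a receptor of class 4 semaphorins, fell by 0.52 (SE 0.13, adjusted p = 0.0354 by edgeR), from 512, 717 and 587 CPM to 395, 441 and 434 CPM. Control replicate 2 was the highest library for both, and without it the falls were 0.55 and 0.37. Plxna2 fell by 0.40 (SE 0.09, adjusted p = 0.0204 by edgeR). Plxna1, Plxna2 and Plxnb2 missed the adjusted p limit without control replicate 3 or any 1 APPswe library, and Plxna2 also without control replicate 1. With 1 library left out their adjusted p by edgeR reached 0.115, 0.101 and 0.130.

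Plxnd1, the receptor of Sema3e, was also lower in every APPswe library (166, 133 and 196 against 108, 124 and 118 CPM), but its log2 fold change of -0.50 lay at the limit (edgeR-adjusted p = 0.0501) and passed it without control replicate 2 (-0.63, edgeR-adjusted p = 0.00015). Plxnb1, the Sema4d receptor of osteoblasts, was at 6.06, 3.37 and 6.04 CPM in control and 4.60, 6.07 and 5.51 CPM in APPswe libraries. Its log2 fold change of 0.06 had an interval of -0.56 to 0.69 (edgeR-adjusted p = 0.883) and took the other sign, -0.16, without control replicate 2. Beside the 4 plexins that fell stands the macrophage marker sum, most of it from Lyz2. It was at 19910, 15849 and 21397 CPM in control replicates 1, 2 and 3 and at 10926 to 11692 CPM in APPswe libraries. Of its 13 markers 1 (Cd14) was called lower and 1 (Aif1) higher. Control replicate 2 had the lowest sum of the controls, but Plxna1, Plxnb2 and Plxnc1 were highest there and Plxna2 lowest. Of the markers, Aif1, C1qa, Cd68, Lyz2, Mertk and Mrc1 were lowest of the controls there and the others highest. The part of that sum in the plexin values was not tested.

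All 3 slits were higher in every APPswe library than in any control library, as were 22.8% of all genes. Slit3, a secreted ligand known in bone for its action on vessels and on bone formation, was at 34.2, 31.9 and 38.9 CPM in control and 70.4, 81.4 and 75.3 CPM in APPswe replicates 1, 2 and 3. The control libraries, replicate 2 included, lay close together, and so did the APPswe libraries. Slit3 rose by 1.11 on the log2 scale (SE 0.10, adjusted p = 0.00122 by edgeR), by 1.05 without control replicate 2, and its log2 ratios were 1.09 and 1.01 within the hyphenated and unhyphenated names. With Unc5b it was 1 of 2 members called under all 16 alternatives run for single members, which leave out glmTreat. With edgeR's glmTreat against a log2 fold change of 1 no member was called. Slit1, a family member best known from the nervous system, was at 7.16, 3.71 and 7.51 CPM in control and 12.2, 15.0 and 13.0 CPM in APPswe libraries. It rose by 1.13 (SE 0.27, adjusted p = 0.0278 by edgeR), and by 0.87 (edgeR-adjusted p = 0.000236) without control replicate 2, its lowest library, so that it no longer reached the fold limit.

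Of the 6 fits with 1 library left out, the call of Slit1 was kept in the fit without control replicate 3. By edgeR, the adjusted p was 0.0527 without control replicate 1 and of 0.0796, 0.111 and 0.0942 without APPswe replicates 1, 2 and 3. Slit2 was at 35.0, 41.8 and 36.2 CPM in control and 47.0, 45.0 and 44.8 CPM in APPswe libraries, for a log2 difference of 0.28 (edgeR-adjusted p = 0.0738), or 0.36 (edgeR-adjusted p = 0.00231) without control replicate 2. The receptor Robo1 rose by 0.39 on the log2 scale (SE 0.11, adjusted p = 0.0471 by edgeR), from 17.9, 20.6 and 16.6 CPM to 23.8, 25.0 and 23.4 CPM. Robo2, the other slit receptor with a role in bone, had a log2 difference of 0.55 (edgeR-adjusted p = 0.245) at levels of 0.843 to 2.06 CPM. The stromal fibroblast marker sum, at 1884 to 3707 CPM in control and 6879 to 7070 CPM in APPswe libraries with 3 of 6 markers (Col3a1, Postn and Pdgfra) called higher, moved in the same direction as the slits. Of the same list Dcn and Lum had log2 fold changes of -0.58 and -0.45 and were not called, and Dcn was called lower without control replicate 2, at -1.08 (edgeR-adjusted p = 7.71e-07). The part of these markers was not tested.

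Of the netrins and their Unc5 receptors, 1 ligand was called lower and 1 receptor higher. Ntn1, a laminin-like secreted ligand that acts on osteoclasts and vessels, was at 63.2, 11.2 and 70.7 CPM in control replicates 1, 2 and 3 and at 8.19, 8.52 and 8.15 CPM in APPswe replicates 1, 2 and 3. The groups did not overlap, but control replicate 2 was near the APPswe libraries and far under the other controls. Ntn1 fell by 2.54 on the log2 scale (SE 0.63, adjusted p = 0.031 by edgeR), by 3.01 without control replicate 2, and its log2 ratios were -2.18 and -3.08 within the 2 styles of name. Of the 6 fits with 1 library left out, the call held in the fit without control replicate 2. It was lost without control replicate 1 or 3 (edgeR-adjusted p = 0.0777 and 0.0767) and without APPswe replicate 1, 2 or 3 (edgeR-adjusted p = 0.116, 0.115 and 0.116), though the log2 fold change stayed between -3.01 and -2.17. Ntn3 and Ntn4 were not called with all libraries, at -0.90 and -0.89 (edgeR-adjusted p = 0.243 and 0.0725), and were called lower without control replicate 2, at -1.29 and -1.17 (edgeR-adjusted p = 0.00112 and 1.98e-05).

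Unc5b, a netrin receptor known from endothelial cells and also found in macrophages and osteoclast precursors, rose. It was counted at 35.7, 57.8 and 43.7 CPM in control and 93.2, 117 and 118 CPM in APPswe libraries, and the highest control, replicate 2, was under the lowest APPswe library. The log2 fold change was 1.26 (SE 0.19, adjusted p = 0.00596 by edgeR), 1.47 without control replicate 2, and 0.99 and 1.43 within the 2 styles of name. Unc5a, a paralogue best known from neurons, had a log2 difference of -1.46 (edgeR-adjusted p = 0.11) and was called lower without control replicate 2, at -1.86 (edgeR-adjusted p = 0.000726). Unc5c had one of 0.16 (edgeR-adjusted p = 0.663). The endothelial marker sum was at 268, 83.6 and 290 CPM in control and 28.7 to 31.9 CPM in APPswe libraries, with 2 of 10 markers (Kdr and Vwf) called lower. In control replicates 1, 2 and 3 Kdr was at 10.9, 25.5 and 12.6 CPM and Vwf at 38.2, 55.0 and 46.8 CPM, both highest in replicate 2. Every other endothelial marker on the list was lowest of the controls there. Among these, Pecam1 was counted 827, 1 and 895 times in the 3 controls in replicate order and 31, 43 and 54 times in the 3 APPswe libraries. Ntn1, Ntn3, Ntn4 and Unc5a were also low in control replicate 2, and the part of these markers in their values was not tested.

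**Figure D4:**
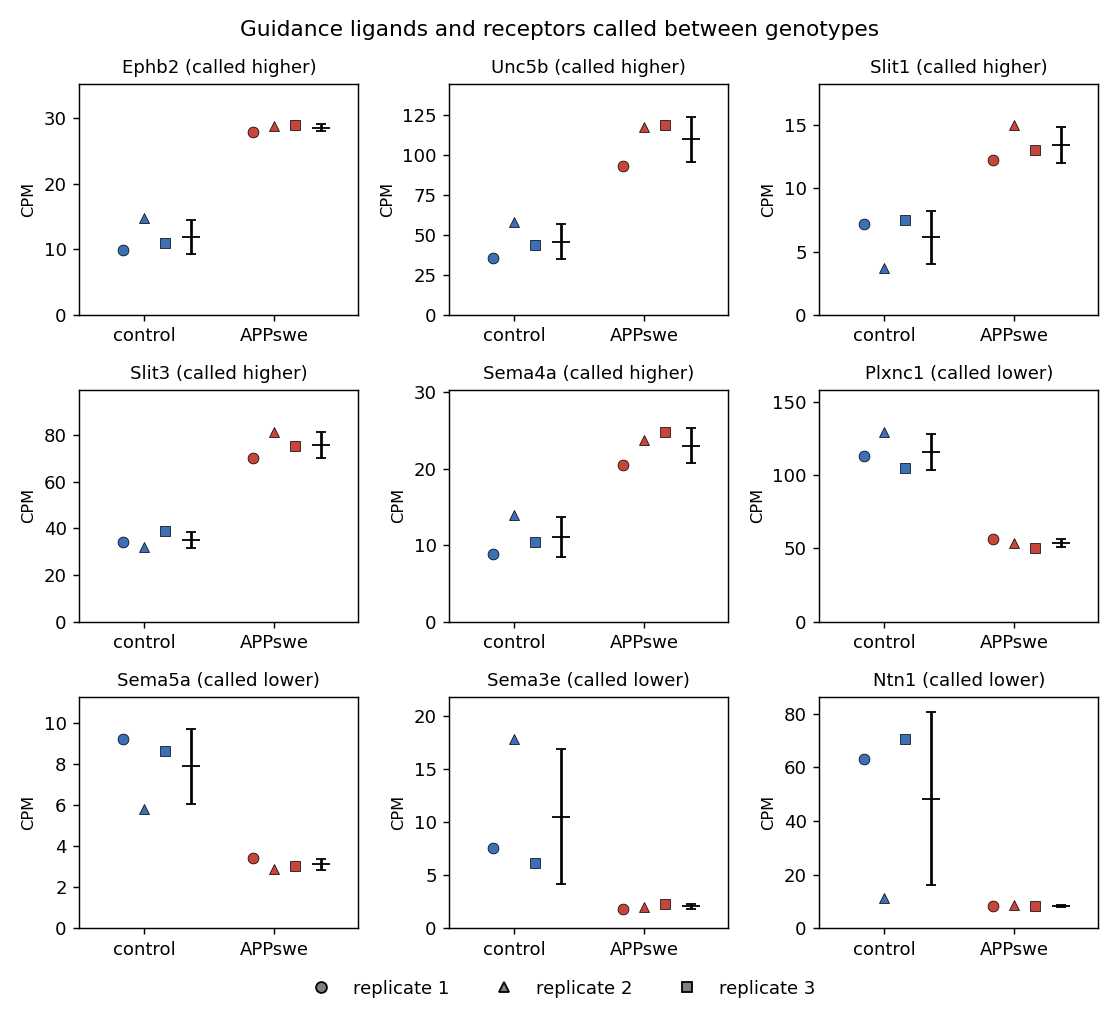
CPM of the 9 called members in each library, with blue points for control, red points for APPswe, the shape for the replicate and bars for the mean and 1 SD of 3 libraries. No member overlaps between the genotypes, and control replicate 2 (triangle) is far from its group for Ntn1 (11.2 CPM) and Sema3e (17.9 CPM).

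The 10 members under the filter were Epha8 with 0 counts in all, Ntn5 (5), Epha6 (6), Sema5b (7), Ephb1 (10), Epha10 (12), Unc5d (27), Epha5 (50), Robo3 (58) and Robo4 (276 counts over the 6 libraries). Robo4, a receptor typical of endothelial cells, is named with its values after they were seen. Its counts were 121, 0 and 138 in the 3 controls in replicate order and 6, 2 and 9 in the 3 APPswe libraries, so it followed Pecam1 across the libraries. Without control replicate 2, where it had no count, Robo4 passed the filter, and so did Epha5 (16, 2 and 19 counts in the controls and 6, 2 and 5 in the APPswe libraries). Both passed through the controls in which they were high, so no test of them is given. The other members called lower without control replicate 2 but not with all libraries were Sema3b and Sema3d, Ntn3, Ntn4 and Unc5a, described above, and Sema4f (-1.31), Sema6a (-1.38) and Ephb6 (-1.20). The 27 members known for coupling between bone cells were all tested, and 3 were called higher and 3 lower, or 11.1% each beside 3.74% and 3.60% of all genes. By the adjusted p alone 5 rose (18.5%, beside 10.5%) and 8 fell (29.6%, beside 12.0%), and 14 did not pass. Their median log2 fold change was 0.047, beside -0.0033 for all genes tested.

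Other genes of the same pathways were followed by a list of 96 co-receptors, partners and effectors, of which 89 were tested. Of these 3 were called higher (3.37%) and 7 lower (7.87%), beside 3.74% and 3.60% of all genes, and 11 rose (12.4%, beside 10.5%) and 20 fell (22.5%, beside 12.0%) by the adjusted p alone. Among the higher calls Hjv, with 1, 1 and 0 counts in control, passed the filter through the APPswe libraries alone. Among the lower calls Crmp1 passed it through the controls, at 88, 24 and 83 counts against 9, 9 and 10. Their calls thus follow in part from the filter. The 7 lower calls became 4 when any 1 library but control replicate 2 was left out. The neuropilins, which carry class 3 semaphorin signals together with plexins, fell below the fold limit. Nrp1 went from 343, 297 and 336 CPM to 198, 189 and 191 CPM, a fall of 0.75 on the log2 scale (SE 0.08, adjusted p = 0.002 by edgeR), and Nrp2 from 266, 374 and 302 CPM to 180, 182 and 179 CPM, a fall of 0.80 (SE 0.13, adjusted p = 0.00755 by edgeR). Neo1, which encodes the netrin and repulsive guidance receptor neogenin, rose by 0.45 (SE 0.07, adjusted p = 0.00639 by edgeR). Dcc, the classical netrin receptor, had 33 counts over all libraries and was not tested. Trem2 and Tyrobp, the receptor and adaptor that act with plexin-A1 in osteoclasts, had log2 fold changes of -0.50 and -0.42 (edgeR-adjusted p = 0.127 and 0.154) and passed without control replicate 2, at -0.70 and -0.61 (edgeR-adjusted p = 0.000117 and 0.000217).

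Draxin, a secreted guidance ligand of netrin receptors, was called higher, at 2.14, 0.393 and 2.82 CPM in control and 9.59, 9.25 and 10.6 CPM in APPswe libraries, for a log2 difference of 2.45 (SE 0.55, adjusted p = 0.0225 by edgeR). Itga1, the integrin chain that joins the Sema7a receptor complex, rose by 1.37 (SE 0.18, adjusted p = 0.00365 by edgeR). Hjv, a repulsive guidance family member made by skeletal muscle and liver, had 2 counts over the control and 119 counts over the APPswe libraries, and the ratio scaled for depth was 58.7, with an exact 95% interval of 15.9 to 490.0 that covers counting error only. The skeletal muscle marker sum was at 1.85 to 8.43 CPM in control and 126 to 132 CPM in APPswe libraries, with 9 of 10 markers called higher, and its part in the value of Hjv was not tested. Of the lower genes, Cd72, a Sema4d receptor of immune cells, went from 360, 497 and 360 CPM to 140, 142 and 142 CPM, a fall of 1.52 (SE 0.14, adjusted p = 0.00121 by edgeR). Sdc3, a heparan sulphate proteoglycan, fell by 1.18 (SE 0.16, adjusted p = 0.00431 by edgeR), or by 0.99 without control replicate 2, under the fold limit. The cytoplasmic effectors called lower were Crmp1 (-2.81), Chn2 (-2.20), Ngef (-1.64), Rnd1 (-1.40) and Ablim3 (-1.15), all log2 fold changes. Crmp1 encodes a mediator of semaphorin signals, Chn2 and Ngef encode regulators of small GTPases, Rnd1 encodes a plexin-binding GTPase, and Ablim3 encodes an actin-binding LIM protein. None of the 60 effectors tested was called higher, while 5 rose by the adjusted p alone (8.33%, beside 10.5% of all genes).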

How the data were processed

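Bulk RNA sequencing of 6 libraries, 3 control and 3 APPswe, was analysed, with genotype and replicate number as the labels give them. The authors deposited the read counts per gene without normalization. They also deposited FPKM values, rounded, with blank cells in 397 genes for the libraries named with a hyphen and in 716 genes for the others, and blanks were read as 0. The authors' log2 fold changes and p-values in the same table are their own comparison and were not used. The submitters' processing notes name GRCm38; the aligner and counter are not given in the sources used here. Coordinates and promoter sequences came from RefSeq GRCm38.p6 by gene number, and all 66 members matched its gene table.

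Counts were compared in R 4.3.3 with the quasi-likelihood test of edgeR 4.0.16 after TMM scaling and filterByExpr, which kept 13484 of 17830 genes, with Benjamini-Hochberg adjustment over all of them and no covariate. Calls needed an adjusted p no higher than 0.05 together with a log2 fold change of 1 or more in size; "rose" and "fell" are used of an adjusted p of at most 0.05. Standard errors were derived from the F statistic (log2 fold change divided by its square root). Levels between genes were compared in FPKM only. Totals of 17263757 to 18398392 counts per library limit the precision of low genes. The script was tested on simulated data. No library pair agreed within sampling noise, and each library was counted as 1 replicate. The lowest chi-square over degrees of freedom was 1.57 (14041 genes), between APPswe replicates 2 and 3, whose biological coefficient of variation was 0.0202. All other pairs were at 5.94 or more. Such an excess cannot show that libraries came from separate animals or cultures, so the APPswe spread may be too small.

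Members were named if called, if they passed the adjusted p alone, if known for bone coupling, or if most abundant by FPKM in their role group; members under the filter were named by count. The members, lists, motifs and naming rule were chosen with earlier results of these data known. Alternatives were DESeq2 1.42.0, its size factors in edgeR, no TMM, other filters, a replicate block, the style of the library name as a covariate, glmTreat, limma 3.58.1 on log2(FPKM + 1) and log2(FPKM + 0.1), and each library left out in turn. Human transgene reads were not counted separately, so the genotype labels could not be checked on App. Other experiments of the study were not analysed here.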

Additional observations from a re-analysis of the deposited data

How the results depend on the processing

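The 5 members called higher and 4 called lower became 8 and 12 by the adjusted p alone, 0 and 0 with edgeR's glmTreat against a log2 fold change of 1 (2 and 4 at an unadjusted p), and 2 and 0 with limma on log2(FPKM + 1), with or without the filter (15 lower at an unadjusted p with it and 14 without it, 1 of them past the fold limit). Leaving out each library in turn gave 3 to 6 members called higher and 1 to 14 called lower, the 14 without control replicate 2 (Epha5 and Robo4 included, which passed the filter in that fit) and the 1 without APPswe replicate 2 or 3. Of the other guidance genes, 3 were called higher and 7 lower (Hjv and Crmp1 included, which passed the filter through the group in which they were high). These became 11 and 20 by the adjusted p alone, 1 and 0 with glmTreat (3 and 4 at an unadjusted p), and 1 higher with at least 10 counts in every library. The 7 lower became 2 with limma on log2(FPKM + 1), with or without the filter, and 4 with log2(FPKM + 0.1). The leave-one-out range was 2 to 4 higher and 4 to 7 lower. Signs turned for Plxnb1 (0.06 with all libraries), which was at -0.049 with the style of name as covariate, -0.16 without control replicate 2 and -0.03 without APPswe replicate 2, against 0.19 at most when another library was left out, and for Sema7a (0.05), at -0.018 with the style covariate. Over the 16 alternatives per named member, 513 values kept direction and call, 37 lost a call, 6 gained one and 4 took the other sign. The 513 include members that were called in neither fit, and the 37 all fell on called members. Ntn1 stayed called in 6 and Slit1 in 7 of the 16.

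The replicate numbers of the titles gave no clear sign of pairing. Deviations from the group means correlated at 0.084, -0.043 and 0.190 for numbers 1, 2 and 3 over 13484 genes. With 3 libraries per group and control replicate 2 far from the others, such correlations cannot exclude a pairing. With the replicate block 4 members were called higher and 3 lower, and 4 other guidance genes lower. Slit1 (edgeR-adjusted p = 0.0718) and Ntn1 (edgeR-adjusted p = 0.0876) lost their calls there, as they did with the style of name as covariate. Over all genes 50.9% of calls were higher in APPswe libraries, against 63.1% to 64.2% in the limma fits, 67.1% with glmTreat and 42.5% without control replicate 2. Another scaling or the FPKM unit moved the median of all genes by at most 0.081 on the log2 scale. Depth limits members near the floor, and 3 libraries per group limit every call.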
